A study of Mus musculus with 6 samples.

Results

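The p200 family (Ifi200 or PYHIN family) was examined in infarcted hearts of wild-type mice and of mice labelled as knocked out for *Crlf2*, which encodes a receptor chain for thymic stromal lymphopoietin (TSLP). *Crlf2* itself had 707 to 917 fragments in the wild-type and 437 to 667 fragments in the *Crlf2-/-* libraries, so its transcripts were present in both. Its members were taken by symbol from the deposited expression table: *Aim2*, *Ifi203*, *Ifi204*, *Ifi205*, *Ifi206*, *Ifi207*, *Ifi209*, *Ifi211*, *Ifi213* and *Mndal*, which are 10 of the 54532 genes listed. All 10 lie in 1 cluster on chromosome 1, and all 10 passed the filter on low values that left 15520 genes to test. Bulk RNA sequencing had been performed on peri-infarcted and infarcted heart tissue of 3 wild-type (WT) and 3 *Crlf2-/-* mice, with 1 library per mouse, so each group has n = 3. Both groups were on the C57BL/6 strain, both underwent ligation of the left anterior descending coronary artery to cause a myocardial infarction (MI), and both were sampled on day 7, so no uninjured heart stood beside them. According to the methods of the study, young adult male C57BL/6J mice were bought from a breeder and the *Crlf2-/-* line was made by another company on the C57BL/6J background. The sources used here do not say whether the sequenced WT mice were bought or came from the colony of the knockout line, and a part of breeding source in any difference was not tested.

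Proteins of the p200 family carry a HIN domain, which binds DNA, and most of them also carry a pyrin domain, through which proteins bind each other. AIM2 senses double-stranded DNA in the cytosol and assembles an inflammasome with the adaptor ASC and caspase-1, while other members are nuclear or cytosolic DNA-binding proteins that have been tied to the STING pathway and to the regulation of transcription. The genes are best known as targets of interferons and are expressed mainly in leukocytes, above all in myeloid cells. In an infarct, dying cells release DNA and recruit such leukocytes.

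All 10 genes had higher mean levels in *Crlf2-/-* than in WT hearts, and their median log2 fold change was 0.69 against a median of -9.8e-06 over all genes tested. The distance differed between members. *Ifi213* and *Ifi206* were 2.82 and 2.69 times the WT mean, *Ifi204*, *Ifi211* and *Ifi209* were between 1.77 and 1.90 times, and *Ifi205* was 1.13 times. A direction alone says little, since 50% of all genes tested were higher. Under limma, run on log2(FPKM + 0.1) with correction over all genes by Benjamini-Hochberg, 0 of 10 members met both thresholds (adjusted p no greater than 0.05, log2 difference no smaller than 0.5 in size), where 0.00644% of all genes tested were called higher. At an unadjusted p under 0.05, 8 of 10 were higher, against 3.31% of all genes tested (3.24% were lower). With limma's voom on fragments 0 of 10 were called, where 0.00644% of all genes tested were called higher. The 3 WT and the 3 *Crlf2-/-* values did not overlap for 6 of 10, with *Crlf2-/-* higher in each, against 5.57% of all genes tested. These members lie side by side, share sequence and varied together between libraries, so they are not independent of each other.

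Sequences around annotated starts of the genes are given first, because the members are interferon targets. The interferon-stimulated response element is a DNA motif through which type I interferon acts. Windows from 250 bases before to 50 bases after the annotated start were taken from RefSeq (GRCm38.p6) for 9 of the 10 members, and *Ifi204* had no window in that table. The core of the element, written as GAAANNGAA and searched on both strands, was found in 7 of these 9 members, namely *Ifi206*, *Ifi213*, *Ifi207*, *Ifi211*, *Ifi205*, *Mndal* and *Ifi203*. It was found in 8.56% of all 32851 windows of this kind, or in 9.76% of the 27025 genes they belong to. It was also found in the windows of *Ifi208* and *Ifi214*, p200 genes of the cluster outside the 10 members. No match was found in the windows of *Aim2* and *Ifi209*, nor in the window of a second start of *Ifi203*. The gamma-activated site, written as TTCNNNGAA, reads the same on both strands and was found in 0 of the 9 members and in 9.55% of all genes. One stretch of 89 bases is shown for each of the 7 members with a match, 5′ to 3′ on the strand of the gene, with the match to GAAANNGAA in capitals and 40 bases on either side. All 7 are read from the minus strand, at chr1:173491310-173491398 for *Ifi206*, chr1:173599297-173599385 for *Ifi213*, chr1:173741802-173741890 for *Ifi207*, chr1:173913035-173913123 for *Ifi211*, chr1:174031841-174031929 for *Ifi205*, chr1:173880175-173880263 for *Mndal* and chr1:173942479-173942567 for *Ifi203*.
Ifi206: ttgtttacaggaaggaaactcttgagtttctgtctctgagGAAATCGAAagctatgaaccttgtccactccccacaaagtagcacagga
Ifi213: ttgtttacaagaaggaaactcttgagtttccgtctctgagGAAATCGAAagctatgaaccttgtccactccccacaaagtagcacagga
Ifi207: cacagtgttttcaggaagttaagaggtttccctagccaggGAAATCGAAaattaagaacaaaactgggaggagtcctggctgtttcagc
Ifi211: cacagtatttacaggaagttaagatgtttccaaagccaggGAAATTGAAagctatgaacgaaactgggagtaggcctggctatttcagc
Ifi205: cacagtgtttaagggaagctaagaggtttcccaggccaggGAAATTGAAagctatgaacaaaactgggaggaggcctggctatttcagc
Mndal: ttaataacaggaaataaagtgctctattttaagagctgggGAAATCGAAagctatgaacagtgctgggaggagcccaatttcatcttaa
Ifi203: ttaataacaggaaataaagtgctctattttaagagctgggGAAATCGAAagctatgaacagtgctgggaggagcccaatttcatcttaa

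The match lay between 35 and 73 bases before the start in 6 of these genes and 134 bases before it in *Ifi205*. *Ifi205* and *Mndal* each had a further match on the opposite strand, at 24 bases after the start and in the window of a second start, respectively. The stretches fell into sets of near copies. Those of *Mndal* and *Ifi203* were identical over all 89 bases although they lie at separate places in the cluster. In both genes the match precedes a RefSeq start but lies inside the wider gene span that the authors deposited. The stretches of *Ifi206* and *Ifi213* differed at 2 positions. The stretch of *Ifi208* differed from each of the last pair at 1 position. *Ifi211* and *Ifi205* differed at 9 positions, and *Ifi207* differed from *Ifi205* at 12 and from *Ifi211* at 13. *Ifi206* and *Ifi207*, from different sets, were alike at 35 of 89 positions, while the run GAAAGCTATGAAC stood in the windows of 6 members (all of those shown except *Ifi207*) and of 7 genes in the whole table. These are descriptions of letters and show neither binding nor use of a site, and the shared ancestry of the copies means that the 7 matches are not separate observations.

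Levels are given in FPKM, the number of fragments divided by exon length and by library size, which the authors deposited. They were adjusted here with TMM factors (trimmed mean of M values) so that libraries could be compared. Since FPKM is a level per length, members can be set side by side, with 1 limit. Fragments from sequence shared with other genes may be counted unevenly, and 56.9% of the 100-base windows of *Ifi211* transcripts are shared, against 0 in *Aim2*. In WT hearts the order of mean levels was *Ifi207* at 18.4 ± 4.58 FPKM (SD, n = 3), *Ifi204* at 14.999 ± 2.17, *Mndal* at 13.6 ± 4.26, *Ifi211* at 13.06 ± 0.9745, *Ifi203* at 11.7 ± 4.57, *Ifi209* at 8.59 ± 2.73, *Aim2* at 3.85 ± 0.862, *Ifi205* at 3.73 ± 0.920, *Ifi206* at 2.71 ± 1.13 and *Ifi213* at 1.39 ± 0.581. The ranges of neighbours in this order overlapped in WT except between *Ifi209* and *Aim2*, so 6 members formed an abundant set and 4 a scarce one. In *Crlf2-/-* hearts the abundant set was the same, *Ifi204* stood first at 28.5 ± 6.62 FPKM (SD, n = 3), and *Ifi206* at 7.30 ± 1.68 stood above *Aim2* at 4.82 ± 0.370 and *Ifi205* at 4.23 ± 0.371, with no overlap in either case. *Ifi213*, lowest in both groups, reached 3.91 ± 0.671 FPKM in *Crlf2-/-* hearts.

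**Figure D1:**
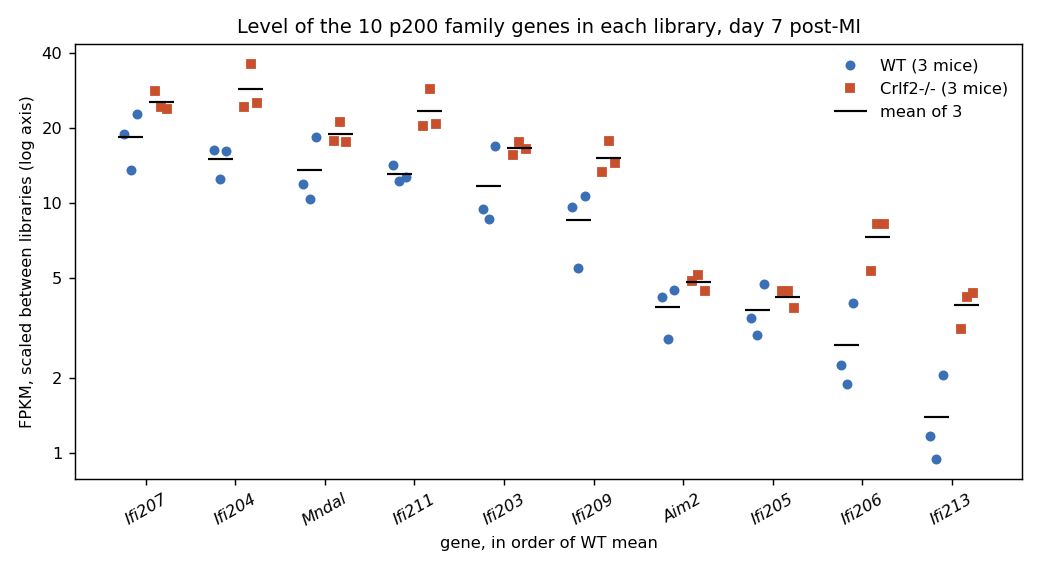
Level of each p200 gene in every library, in FPKM scaled between libraries, on a log axis, with WT mice as blue circles, Crlf2-/- mice as orange squares and the mean of 3 as a black line. The 10 genes stand in the order of their WT mean, and the groups are apart for Ifi207, Ifi204, Ifi211, Ifi209, Ifi206 and Ifi213.

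*Aim2* (ENSMUSG00000037860), the inflammasome sensor, is on the plus strand at chr1:173350879-173466040. Its level was 4.20, 2.87 and 4.48 FPKM in the WT mice and 4.86, 5.17 and 4.43 FPKM in the *Crlf2-/-* mice. The groups overlapped, since *Crlf2-/-* replicate 3 lay just below WT replicate 3. The log2 fold change was 0.34 (standard error [SE] 0.18, 95% confidence interval -0.06 to 0.74, limma adjusted p = 0.830), and the exact permutation test, two-sided, gave p = 0.2, where 3 mice against 3 cannot go below 0.1. The 12 genes listed for the inflammasome downstream of and beside AIM2 showed a median of 0.03 on the log2 scale, with 0 higher and 1 lower at an unadjusted p under 0.05, and 0 called. The 1 was *Nlrp3*, another inflammasome sensor, at 2.17, 1.81 and 1.33 FPKM in WT and 1.31, 1.19 and 1.18 FPKM in *Crlf2-/-* mice (log2 fold change -0.47, limma adjusted p = 0.733). *Casp4*, an inflammatory caspase, and *Casp8*, the most abundant gene of the list, had log2 fold changes of 0.36 and 0.02 with overlapping groups.

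*Ifi204* (ENSMUSG00000073489, minus strand, chr1:173747293-173766943) encodes p204, a DNA-binding protein of myeloid cells that is often set beside human IFI16. It stood at 16.4, 12.5 and 16.1 FPKM in the WT mice and at 24.2, 36.1 and 25.2 FPKM in the *Crlf2-/-* mice. Every *Crlf2-/-* library lay above every WT library by at least 7.85 FPKM, the widest gap of any member. The log2 fold change was 0.91 (SE 0.18, 95% confidence interval 0.50 to 1.32, unadjusted p = 0.000885 and limma adjusted p = 0.196).

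*Ifi206* (ENSMUSG00000037849, minus strand, chr1:173468485-173491041) and *Ifi213* (ENSMUSG00000073491, minus strand, chr1:173566283-173599274), had the largest log2 fold changes of the 10 members. Their upstream stretches are near copies of each other and of that of *Ifi208*, whose log2 fold change was 0.69 with overlapping groups. *Ifi214*, which also has a match, was at -0.02, on only 7 to 23 fragments per library. A part of these sequences in the fold changes was not tested. *Ifi206* measured 2.26, 1.88 and 3.999 FPKM in WT and 5.36, 8.28 and 8.26 FPKM in *Crlf2-/-* mice. *Ifi213* measured 1.17, 0.947 and 2.05 FPKM in WT and 3.14, 4.20 and 4.39 FPKM in *Crlf2-/-* mice. In both genes WT replicate 3 was the highest WT library and still lay under all 3 *Crlf2-/-* libraries. The log2 fold change was 1.44 for *Ifi206* (SE 0.29, 95% confidence interval 0.78 to 2.10, limma adjusted p = 0.212) and 1.48 for *Ifi213* (SE 0.27, 95% confidence interval 0.87 to 2.10, limma adjusted p = 0.151). A log2 fold change above 1 was met by these 2 of the 10 members and by 0.483% of all genes tested. When WT replicate 3 was left out, *Ifi213* passed both thresholds (log2 fold change 1.78, limma adjusted p = 0.0443). It was then 1 of 8 genes called in the whole table, and 0.0322% of all genes tested were called higher. As a share of the 10 members' summed FPKM, *Ifi206* made up 2.46% to 3.54% in WT and 3.90% to 5.93% in *Crlf2-/-* libraries. *Ifi213* made up 1.28% to 1.81% and 2.29% to 3.15%. Both shares were larger in every *Crlf2-/-* library. This restates that these members had the largest fold changes and is not a separate result.

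*Ifi211* (ENSMUSG00000026536, minus strand, chr1:173896345-173913046) varied least among the WT mice. Its level was 14.2, 12.3 and 12.7 FPKM in WT and 20.4, 28.7 and 20.7 FPKM in *Crlf2-/-* mice, with the groups apart (log2 fold change 0.81, SE 0.15, limma adjusted p = 0.152). Its value is uncertain, because 56.9% of the 100-base windows of its transcripts also occur in transcripts of other genes (37.2% in those of *Ifi205*). Such fragments may have been counted unevenly. *Ifi209* (ENSMUSG00000043263, plus strand, chr1:173630917-173647928), which has no match to the response element core in its window, was at 9.61, 5.49 and 10.7 FPKM in WT and 13.4, 17.8 and 14.5 FPKM in *Crlf2-/-* mice. The groups were apart, with a log2 fold change of 0.86 (SE 0.24, limma adjusted p = 0.415), and 16.9% of its windows also occur in *Ifi214*. For the 6 members whose groups were apart, the exact permutation test, two-sided, gave p = 0.1, the smallest that this design allows.

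*Ifi207* (ENSMUSG00000073490, minus strand, chr1:173723427-173741747), the most abundant member in WT, shares 0.79% of such windows with other genes. Its level was 18.8, 13.6 and 22.7 FPKM in WT and 28.1, 24.3 and 23.9 FPKM in *Crlf2-/-* mice. The groups were apart by 1.14 FPKM, the distance between WT replicate 3 and *Crlf2-/-* replicate 3, and the log2 fold change was 0.49 (SE 0.18, limma adjusted p = 0.641). *Mndal* (ENSMUSG00000090272, minus strand, chr1:173849126-173942491) and *Ifi203* (ENSMUSG00000039997, minus strand, chr1:173920407-173942672), whose annotated spans overlap and whose upstream stretches are identical, had a like pattern. *Mndal* was at 12.0, 10.4 and 18.4 FPKM in WT and 17.7, 21.1 and 17.6 FPKM in *Crlf2-/-* mice. *Ifi203* was at 9.49, 8.66 and 16.9 FPKM in WT and 15.6, 17.6 and 16.4 FPKM in *Crlf2-/-* mice. In both, WT replicate 3 lay within the *Crlf2-/-* range and the other WT libraries lay below it. Their log2 fold changes were 0.50 (SE 0.20, limma adjusted p = 0.711) and 0.56 (SE 0.23, limma adjusted p = 0.730), and the exact permutation test, two-sided, gave p = 0.3 for each. Without WT replicate 3 these values were 0.74 and 0.86.

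*Ifi205* (ENSMUSG00000054203, minus strand, chr1:174011998-174031810), at the far end of the cluster, differed least. It stood at 3.46, 2.97 and 4.75 FPKM in WT and 4.43, 4.45 and 3.80 FPKM in *Crlf2-/-* mice, so the highest value of all belonged to a WT mouse. The log2 fold change was 0.20 (SE 0.18, 95% confidence interval -0.21 to 0.61, limma adjusted p = 0.958), and the exact permutation test, two-sided, gave p = 0.4. Of its 100-base windows, 15.04% also occur in *Ifi211*. In *Aim2* this share was 0, and in the members not yet mentioned it lay between 2.84% for *Ifi203* and 13.1% for *Ifi206*. Over the 10 members and 6 libraries, each value rested on 126 to 3016 fragments.

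The members varied together from mouse to mouse. WT replicate 2 was the lowest of all 6 libraries in 10 of 10 members, WT replicate 3 was the highest WT library in 8 of 10, and *Crlf2-/-* replicate 2 was the highest *Crlf2-/-* library in 8 of 10. Summed over the family, the level was 91.5, 71.6 and 113 FPKM in the WT mice and 137, 168 and 139 FPKM in the *Crlf2-/-* mice, so the sums did not overlap. Relative to the WT mean of each gene, the median of the 10 members was -0.01, -0.38 and 0.37 on the log2 scale in the WT libraries and 0.64, 0.89 and 0.61 in the *Crlf2-/-* libraries. Left out one at a time, the libraries moved the median log2 fold change between 0.48, without WT replicate 2, and 0.83, without WT replicate 3, and all 10 members stayed higher in *Crlf2-/-* hearts each time. Without WT replicate 2 the log2 fold change was 0.15 for *Aim2*, 0.05 for *Ifi205*, 0.29 for *Ifi207*, 0.33 for *Mndal* and 0.57 for *Ifi209*, and 5 members had an unadjusted p under 0.05, against 8 with all libraries and 10 without WT replicate 3.

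**Figure D2:**
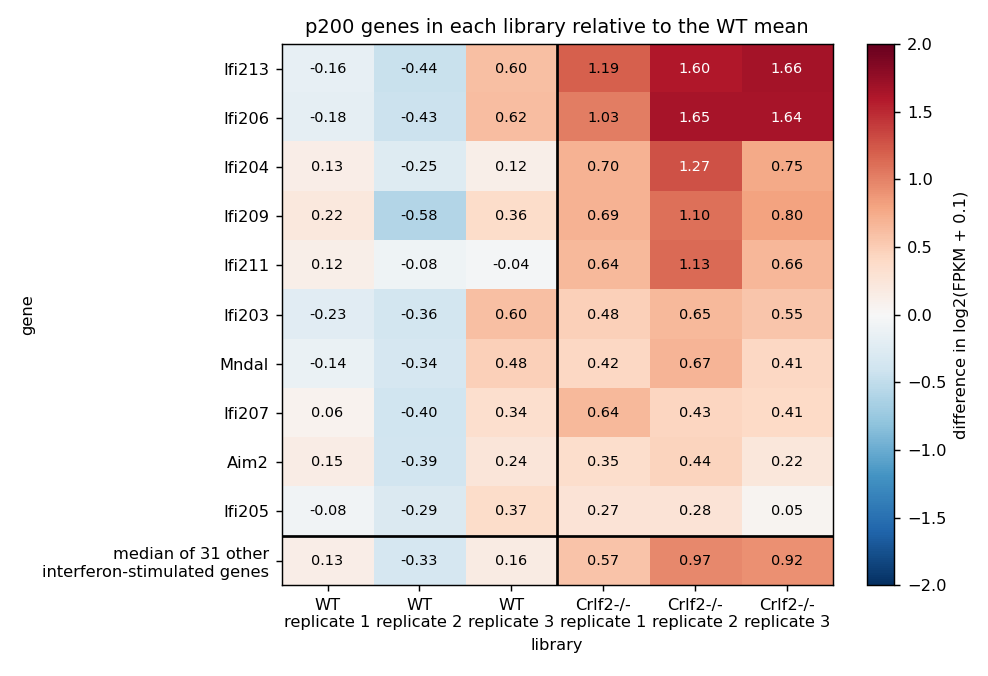
Difference of each library from the WT mean of the same gene in log2(FPKM + 0.1), for the 10 p200 genes in order of log2 fold change and, in the bottom row, for the median of 31 other interferon-stimulated genes. Red cells lie above and blue cells below the WT mean, and the 3 Crlf2-/- columns are above it for every gene, while WT replicate 2 is below it for every gene.

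The cluster, from the start of *Aim2* to the end of *Ifi205*, spans 681 kb of GRCm38. Of 13 other genes tested within 1 Mb, 0 had an unadjusted p under 0.05, and their median log2 fold change was 0.04 (range -0.44 to 0.53). The nearest tested gene before the cluster was *Ackr1*, at a distance of 17.1 kb, with a log2 fold change of -0.06. *Cadm3*, which reaches into the cluster, had 0.10. Within the cluster, p200 genes outside the 10 were scarce. *Ifi208* had 1.08, 0.746 and 1.27 FPKM in WT and 1.10, 2.004 and 2.20 FPKM in *Crlf2-/-* mice (limma adjusted p = 0.733). *Ifi214* stayed at or under 0.126 FPKM in every library, and *Ifi202b* had 0 or 1 fragment in each. The pseudogene *Ifi203-ps*, chosen after its values were seen, stood at 0.921, 1.07 and 2.13 FPKM in WT and at 2.44, 2.44 and 2.42 FPKM in *Crlf2-/-* mice (log2 fold change 0.87, limma adjusted p = 0.520).

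**Figure D3:**
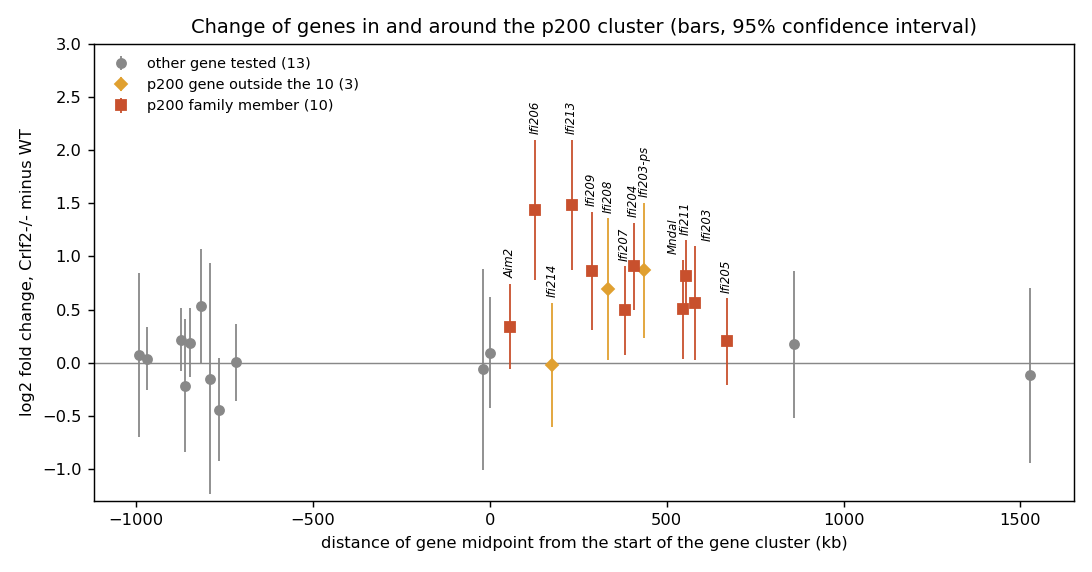
Log2 fold change of Crlf2-/- against WT hearts with its 95% confidence interval for each tested gene in and within 1 Mb of the p200 cluster, by the distance of the gene's midpoint from the start of the cluster in kb. The 10 members are orange squares, 3 other p200 genes are yellow diamonds and 13 other genes are grey circles, and the grey points lie between -0.44 and 0.53.

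Genes of the pathways around the family were then read from lists. Of 31 other interferon-stimulated genes tested, 29 had an unadjusted p under 0.05 with *Crlf2-/-* higher, 0 were called, and the median log2 fold change was 0.84. By library, their median relative to WT was 0.13, -0.33 and 0.16 in WT and 0.57, 0.97 and 0.92 in *Crlf2-/-* mice, so WT replicate 2 was lowest here too. *Dhx58*, which encodes the RNA-binding protein LGP2, had a log2 fold change of 1.14, *Oasl2* one of 1.07 and *Bst2*, which encodes tetherin, one of 0.70, with adjusted p-values of 0.110, 0.130 and 0.537 from limma. *Ifi44*, also an interferon target, was among the 5 genes outside the family whose profile over the 6 libraries was most like the mean profile of the members (Pearson's r = 0.987), beside *Rps6kb2*, *Gm39090*, *Mir99a* and *Mtf2* (r between 0.985 and 0.988). With 6 libraries in 2 groups such values describe these mice alone, and *Mir99a* rested on 6 to 25 fragments per library.

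Among 14 genes for interferon receptors, their kinases and transcription factors, 4 were higher and 1 was lower at an unadjusted p under 0.05, with 0 called and a median log2 fold change of 0.06. *Irf7*, the transcription factor that amplifies type I interferon responses, stood at 16.1, 12.0 and 18.6 FPKM in WT and at 25.7, 53.7 and 46.9 FPKM in *Crlf2-/-* mice, with the groups apart (log2 fold change 1.38, limma adjusted p = 0.217). *Irf9* and *Stat2*, transcription factors of the type I interferon response, had log2 fold changes of 0.50 and 0.74, and *Stat2* was chosen after its values were seen. *Ifngr1*, a receptor chain for interferon gamma, was the 1 that was lower (log2 fold change -0.33, limma adjusted p = 0.460). Among 14 genes of the cGAS-STING pathway and of enzymes that remove nucleic acids or their precursors, 2 were higher and 0 lower at an unadjusted p under 0.05, with 0 called and a median of 0.12. Those 2 were *Zbp1*, a sensor of Z-form nucleic acids (log2 fold change 1.06, limma adjusted p = 0.255), and *Samhd1*, which degrades nucleotides (0.33, limma adjusted p = 0.641). *Tmem173*, which encodes STING, was at 25.7 to 29.6 FPKM in WT and 26.1 to 28.0 FPKM in *Crlf2-/-* mice (log2 fold change 0.01, 95% confidence interval -0.22 to 0.25). No p200 member was counted in these lists.

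**Figure D4:**
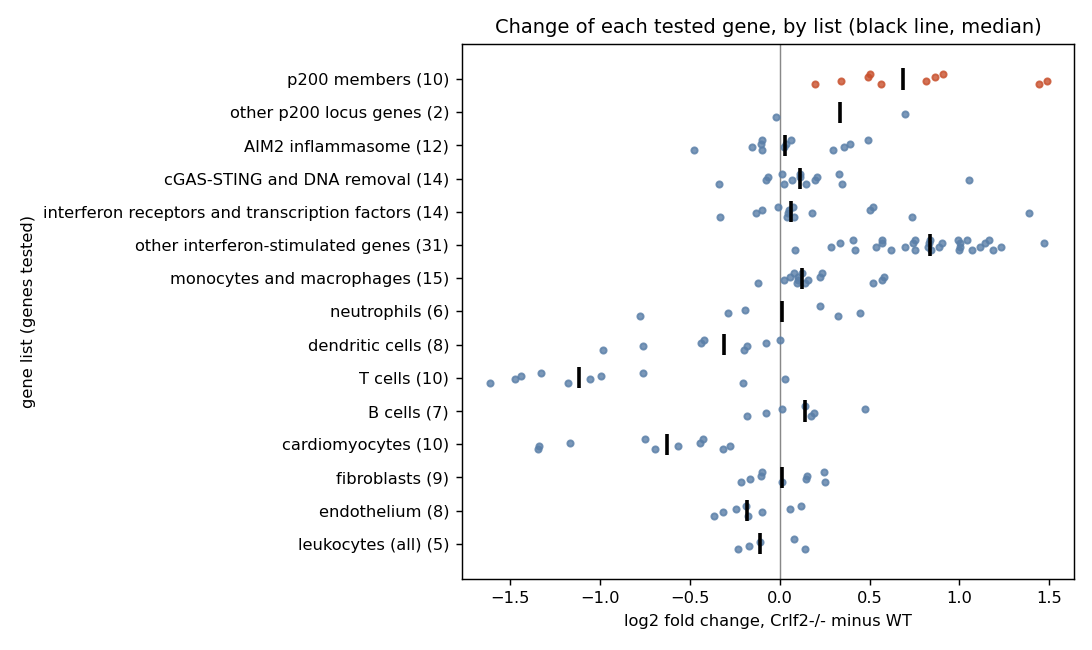
Log2 fold change of Crlf2-/- against WT hearts for each tested gene, by gene list, with the number of genes tested in brackets and the median as a black line. The p200 members (orange) have a median of 0.69 and the other interferon-stimulated genes one of 0.84, while T cell and cardiomyocyte markers have medians of -1.11 and -0.63.

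The tissue held many cell types, and in bulk RNA fewer cells of a type and less RNA per cell cannot be told apart. Markers of monocytes and macrophages summed to 2606 to 4564 FPKM in WT and 3118 to 3781 FPKM in *Crlf2-/-* libraries, and the ranges overlapped. Of these 15 markers, 14 had a log2 fold change above 0 and 1 below, with a median of 0.13. At an unadjusted p under 0.05, 3 were higher and 0 lower. The 3 were *Plac8* (0.52), *Ly6c2* (0.57), both of inflammatory monocytes, and *Fcgr1* (0.58, chosen after its values were seen). *Ccr2*, also a marker of inflammatory monocytes, had 0.10 with overlapping groups, and it too was chosen after its values were seen. The 1 marker below 0 was *Lyz2*, the most abundant, at -0.12. Markers of all leukocytes (5 tested, median -0.11), neutrophils (6, median 0.02) and B cells (7, median 0.14) had 0 genes at an unadjusted p under 0.05 in either direction. *Ly6g*, a defining neutrophil marker, had 0 to 2 fragments per library. T cell markers were lower in *Crlf2-/-* hearts in 9 of 10 cases, 8 of them at an unadjusted p under 0.05 (median -1.11, summed level 16.3 to 24.1 FPKM in WT and 9.88 to 12.4 FPKM in *Crlf2-/-* libraries), and 3 of 8 dendritic cell markers were lower at that level (median -0.31, summed level 15.7 to 20.9 FPKM and 9.92 to 16.2 FPKM). Cardiomyocyte markers, which identify the tissue as heart, were lower in 10 of 10 cases, 3 at an unadjusted p under 0.05 (median -0.63), and summed to 1318 to 2341 FPKM in WT and 909 to 1671 FPKM in *Crlf2-/-* libraries. Fibroblast markers (9 tested, median 0.01) had 0 and endothelial markers (8 tested, median -0.18) had 1 lower gene at an unadjusted p under 0.05. The part of these cell type differences in the levels of the p200 genes was not tested.

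*Crlf2* itself, the targeted gene, had 917, 813 and 707 fragments in the WT mice and 437, 651 and 667 fragments in the *Crlf2-/-* mice, which is -0.51 on the log2 scale of FPKM (SE 0.16, limma adjusted p = 0.527). The groups did not overlap, yet transcripts were present in every library labelled *Crlf2-/-*, and values per gene do not show from which exons they came. All libraries were of like depth, with 18508646 to 19682428 fragments on genes. The 2 genes called over the whole table, *Wdfy1* and *Ighg2b*, lie outside the family.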

How the data were processed

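RNA of heart tissue from 3 WT and 3 *Crlf2-/-* mice was sequenced on day 7 post-MI. Groups followed the genotype labels. The extraction protocol in the labels speaks of another tissue, whereas the tissue label and the methods of the study say heart, which was followed. The authors aligned paired-end reads with HISAT2 2.0.5, counted fragments with featureCounts and deposited FPKM per gene and library with a gene length. The submitters' processing notes name mm10 and hg38, and all members had the same start and end in GENCODE M21 (GRCm38), as did 53499 of the 54409 listed genes found there. The p-values set a difference against the spread between these mice, moderated over all genes tested, and treat the mice as independent. The labels do not say that the mice came from separate litters, so this independence could not be checked.

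After multiplication by gene length, 100% of nonzero FPKM were whole multiples of 1 fragment (tolerance 0.01), which gave fragments per gene, depth and the filter: 10 fragments or more in 3 libraries or more, and 15 or more in total. Scaling used TMM factors from these fragments. log2(FPKM + 0.1) was tested with limma 3.58.1 in R 4.3.3 (trend and robust), adjusted by Benjamini-Hochberg over 15520 genes. A gene was called where the adjusted p did not exceed 0.05 and the log2 fold change was 0.5 or more in size. These thresholds are those of the study, but its test was DESeq2, so the calls here are not the calls of the study. The log2 scale with a pseudocount understates the fold of low genes. Standard errors and 95% confidence intervals come from this fit. Python 3.11.15 served for the other steps.

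Besides the members and *Crlf2*, genes were named by a rule: for each list the 2 with the smallest p and the most abundant, the 5 most alike in profile among genes with a mean of at least 1 FPKM, and the nearest genes on each side of the cluster. Results that need an item withheld for evaluation are not reported here. Members, lists and rule were chosen with earlier results of these data known. Alternatives were other scalings, pseudocounts and filters, the replicate number as a block, voom on fragments, no fold-change threshold and leaving out each library. Protein sequences were not used here, and shared 100-base windows of GENCODE M21 transcripts were used to show how alike the members are. The 0 columns of other samples mean that every value column was used.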

Additional observations from a re-analysis of the deposited data

How the results depend on the processing

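All 10 p200 genes were higher in *Crlf2-/-* hearts under each of the 14 alternatives. The count of members called, 0, stayed at 0 under every alternative except when single libraries were left out, where it ranged from 0 to 1, the 1 being *Ifi213* without WT replicate 3. The median log2 fold change of the members ranged from 0.65 to 0.69 over the scalings, pseudocounts, filters, the block and voom, and from 0.48 to 0.83 with single libraries left out. The count of members with groups apart was 6 under both other scalings and both other filters. The share of all genes tested with *Crlf2-/-* higher and groups apart was counted for the main processing alone (5.57%). Of 140 comparisons of a member with an alternative, 139 left both the sign and the call as they were. Over the whole table, the 2 genes called became 6 with no filter on low genes, 1 where every library had to hold 10 fragments and 1 to 14 with single libraries left out, 14 without *Crlf2-/-* replicate 1. The labels number the mice of each group, and the deviations of same-numbered mice from their group means gave r = -0.02, 0.12 and 0.12, which is not above 0.1 for every pair, and no pairing was assumed. With the replicate number as a block the median was 0.69, 0 members were called (smallest adjusted p = 0.204 from limma) and 4 genes were called over the whole table. With 3 mice per group, the 95% confidence intervals of *Aim2* and *Ifi205* held 0. Those of the other members did not, but these intervals are not adjusted for the number of genes tested. After adjustment 0 of the 10 members were called. Fragments from sequence that members share, above all *Ifi211* and *Ifi205*, may have been assigned unevenly, which could not be checked from values per gene.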
